A study of Arabidopsis thaliana with 19 samples.

Results

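The genes described here are 8 of the Arabidopsis thaliana genes that encode histone H3 or an H3 variant, chosen by locus identifier out of 27444 nuclear protein-coding genes. They are the H3.3 genes HTR4 (AT4G40030), HTR5 (AT4G40040) and HTR8 (AT5G10980), the sperm H3 gene HTR10 (AT1G19890), the centromeric H3 gene HTR12 (AT1G01370), and the H3-like genes HTR6 (AT1G13370), HTR11 (AT5G65350) and HTR14 (AT1G75600). The question was which histone marks lay over these genes, and over 500 bp on either side of them, in sperm.

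Histone H3 is wrapped with H4, H2A and H2B into the nucleosome. The canonical H3.1 proteins are deposited when DNA is replicated, through the chaperone CAF-1, whereas H3.3 is deposited outside replication, largely at transcribed genes, through chaperones such as HIRA. Sperm of Arabidopsis carry their own H3 variant, H3.10 (also called MGH3), which is made from HTR10, and centromeres are marked by CENH3, which is made from HTR12. H3K4me3 and H3K27ac are marks of active genes, H3K27me3 is the product of Polycomb repressive complex 2 at repressed genes, and H3K27me1 is found in silent chromatin.

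The study profiled 4 of these marks, and H3.10, by ChIP-seq in sperm nuclei of the ecotype Col-0. All nuclei were sorted by fluorescence from the line ProHTR10:HTR10-Clover, in which HTR10 joined to the fluorescent protein Clover is driven by the HTR10 promoter, although the genotype label reads wild type; mononucleosomes were released with micrococcal nuclease and sequenced as paired reads. Of the 19 samples, 3 were immunoprecipitated for H3K4me3, 3 for H3K27ac, 3 for H3.10, 2 for H3K27me1 and 2 for H3K27me3, and the rest were inputs in 2 sets of 3. All samples are of this one cell type and line. The 4 marks share input preparations (H3K27me1 from 1 and 3, H3K27me3 from 2 and 3), and H3.10 was not analysed here.

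Every mark has a narrow and a broad peak list, 8 in all, and each pools the replicates of its mark. The values below therefore have no replicate error, no test was possible, and the number of reads per library is unknown. A peak over a gene may stand for a mark in all nuclei or in a part of them, which cannot be told apart. The lists differ in yield: the narrow list of H3K4me3 holds 22150 peaks, that of H3K27ac 19545, that of H3K27me1 13130 and that of H3K27me3 478, so the absence of a called H3K27me3 peak is weaker information than the absence of an H3K4me3 peak. They also differ in control level, the background count that the peak caller took at a summit, solved as described below. Its median over the narrow peaks was 2.72 for H3K27me3, 35.6 for H3K27me1, 66.7 for H3K4me3 and 75.8 for H3K27ac. The 7 sperm marker genes, among them DUO1, HAP2 and GEX2, all carried H3K4me3 and H3K27ac and none carried H3K27me1 or H3K27me3. Of 6 markers of the pollen vegetative cell, the companion of sperm in the pollen grain, 5 carried H3K4me3 and 4 H3K27ac. Their highest folds over control ran from 2.5 to 6.18 and from 1.60 to 2.01. Narrow H3K27me1 was on 4 and H3K27me3 on 2. At PPME1 (AT1G69940) the H3K4me3 and H3K27me1 peaks had no base in the gene and their summits in AT1G69935. Of 5 leaf photosynthesis genes, 3 had narrow H3K4me3, at folds from 1.80 to 2.93, and 2 had H3K27ac. Broad H3K4me3 was on 2, of which RBCS1A (AT1G67090) had no narrow H3K4me3 peak. Among these 5, narrow H3K27me1 was on 3, broad H3K27me1 on 2, and H3K27me3 on none. In the narrow lists, H3K4me3 marked 79.4% of all protein-coding genes, H3K27ac 62.2%, H3K27me1 30.3% and H3K27me3 1.55%. The part of other cells in the peaks of the H3 genes was not tested.

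All 8 genes carried both active marks. A gene was counted as marked when at least 150 bp of it and its 500 bp flanks lay under narrow peaks of H3K4me3 or H3K27ac, or under broad peaks of H3K27me1 or H3K27me3. H3K4me3 marked 8 of 8 genes, where it marked 79.4% of all protein-coding genes, and H3K27ac marked 8 of 8, where it marked 62.2%. Both marks together were on 8 of 8, against 59.9% of all genes. Among the 18562 genes of the same range of length (615 to 2991 bp) the shares were 79.2% and 61.1%. With backgrounds this high, a count of 8 out of 8 is not a result particular to these genes. H3K27me1 marked none of the 8 in the broad list, against 9.96% of all genes and 10.5% of genes of like length. H3K27me3 marked 1 of the 8, HTR6, against 4.44% of all genes and 4.82% of genes of like length. Both active marks with no H3K27me1 or H3K27me3 in either list were found at 6 of the 8 genes, all but HTR6 and HTR14, and at 43.5% of all genes.

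**Figure D1:**
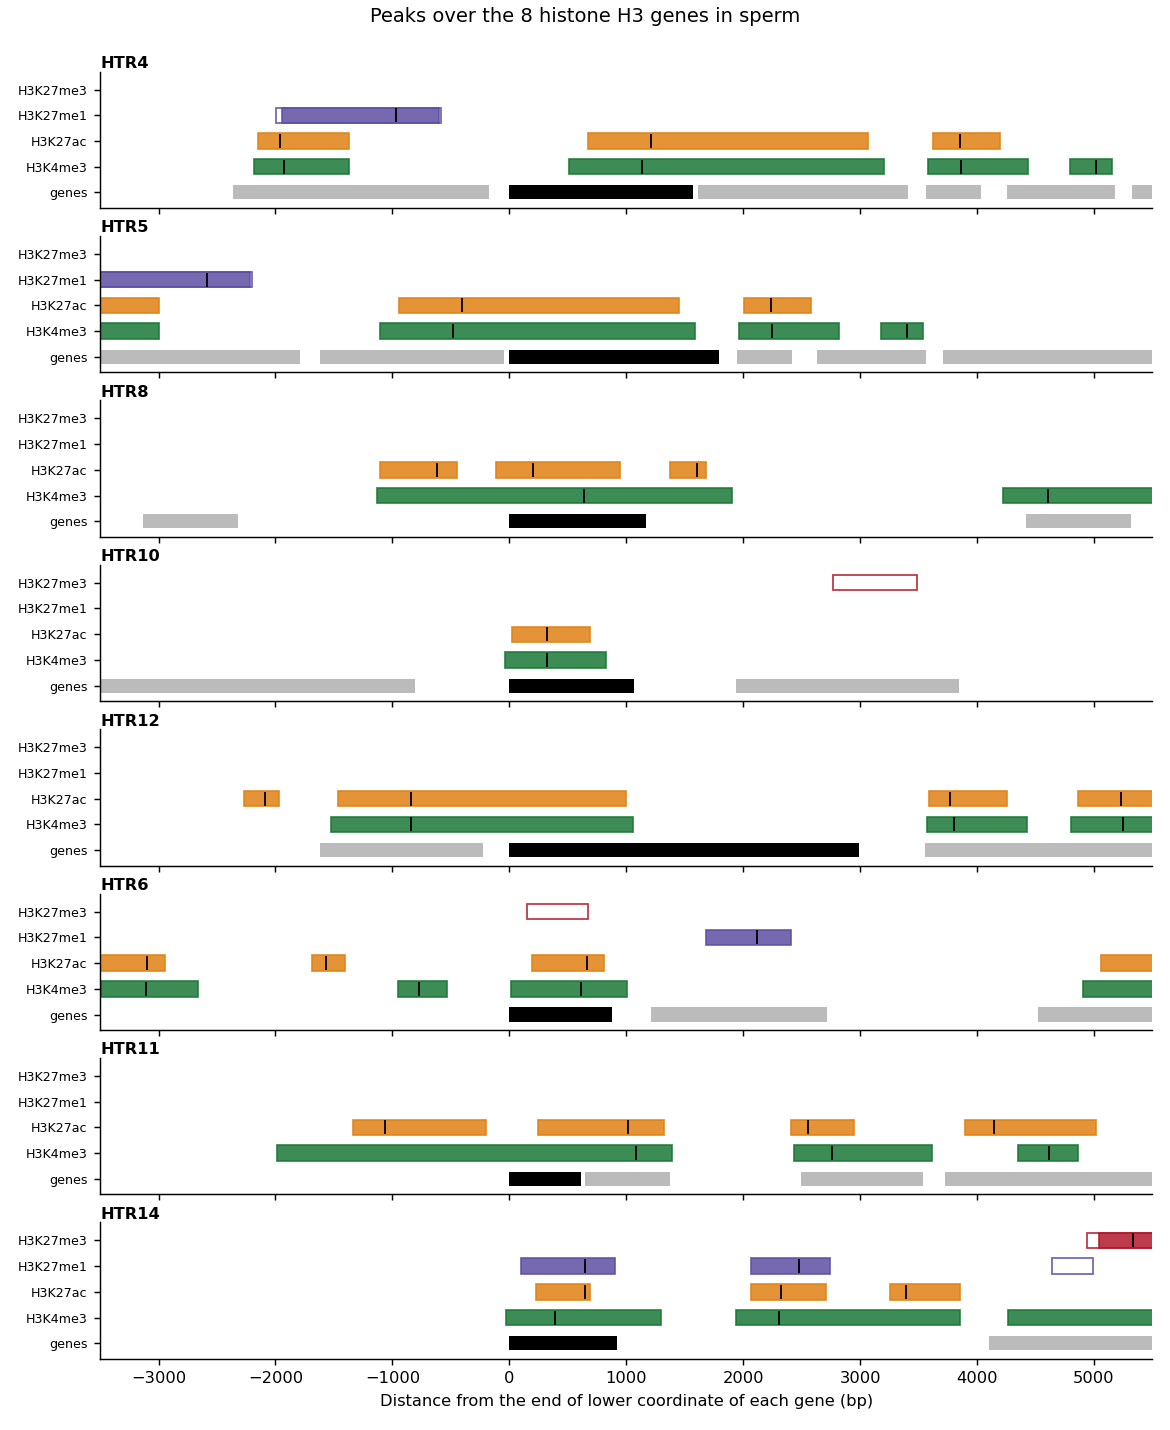
Peaks around each of the 8 genes, with distance in bp from the end of lower coordinate of the gene on the x axis. Black bars are the gene itself and grey bars other protein-coding genes. Filled bars are narrow peaks with their summit as a black tick, and open bars are broad peaks of H3K27me1 and H3K27me3. H3K4me3 and H3K27ac overlap every gene, the summits lie inside 5 of the 8, and only HTR14 (narrow H3K27me1) and HTR6 (broad H3K27me3) have a peak of the other marks over the gene.

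The place of the summit, the position of highest signal in a narrow peak, differed among the genes. The H3K4me3 summit lay inside the gene for 5 of 8 (HTR4, HTR8, HTR10, HTR6 and HTR14), against 68.3% of all genes, and the H3K27ac summit lay inside the same 5, against 53.6%. At HTR5, HTR12 and HTR11 every summit of the peaks over the window lay outside the gene. In what follows, the lower and upper end of a gene are the ends of lower and higher coordinate, since the strand was not in the gene table used here. All peak coordinates are on TAIR10.

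The size of a peak is given as its fold, that is the immunoprecipitated signal at the summit divided by the control there, a ratio written by the authors' peak caller. The highest H3K4me3 fold over each gene was 3.79 at HTR14, 4.23 at HTR10, 4.30 at HTR4, 4.41 at HTR6, 4.85 at HTR8, 5.61 at HTR12, 6.58 at HTR11 and 6.61 at HTR5. Their median was 4.63, beside 4.26 (quartiles 3.17 and 5.25) over the 22192 genes with a peak, and 6 of the 8 lay above that median. For H3K27ac the highest fold was 1.51 at HTR14, 1.67 at HTR10, 1.69 at HTR6, 1.76 at HTR8, 1.99 at HTR4, 2.24 at HTR11, 2.36 at HTR12 and 2.79 at HTR5. Their median was 1.88, beside 1.83 (quartiles 1.66 and 2.01) over 17718 genes, and 4 of the 8 lay above it. The 3 highest genes on both marks were HTR5, HTR11 and HTR12, and HTR14 was lowest on both. The peak of highest fold had its summit outside the gene at these 3 for both marks, and also at HTR8 for H3K27ac. Over the gene span alone HTR8 had 1.60 for H3K27ac, below HTR10 and HTR6. Without replicates the order of neighbours has no error to be read against, which bears most on HTR10, HTR4 and HTR6 for H3K4me3 and on HTR10 and HTR6 for H3K27ac.

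**Figure D2:**
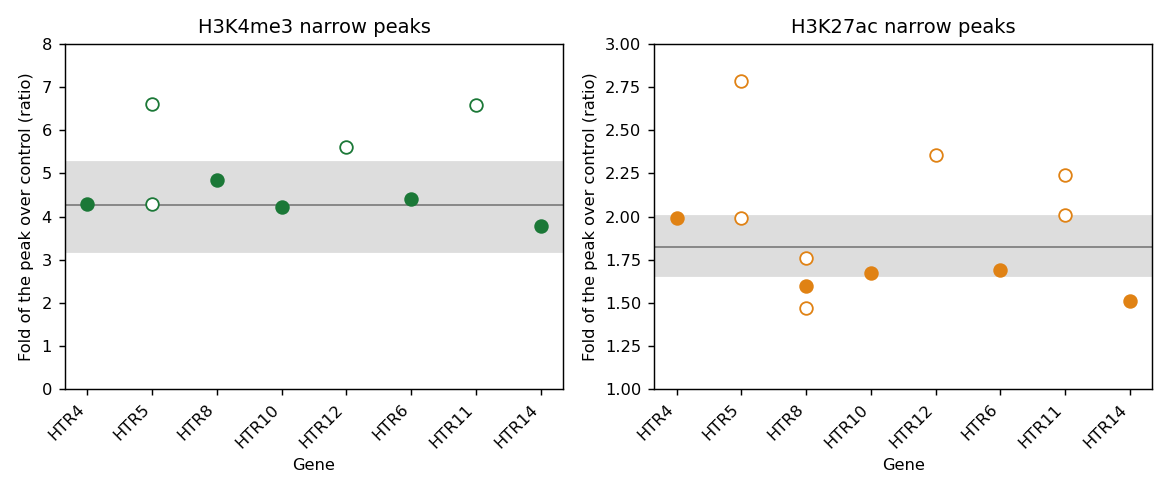
Fold over control (ratio) of each narrow peak over the 8 genes, for H3K4me3 (left, axis from 0) and H3K27ac (right, axis from 1). Filled points are peaks with the summit within the gene and open points have it outside. The line and grey band are the median and quartiles of the highest fold over all genes with a peak. The open points of HTR5 (6.61 and 2.79), HTR11 (6.58 and 2.24) and HTR12 (5.61 and 2.36) are above the band, while every filled point lies within it or, for HTR8 and HTR14 with H3K27ac, below it.

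HTR4, HTR5 and HTR8 encode the same H3.3 protein. HTR4 and HTR5 are neighbours on chromosome 4 and lie under 1 H3K4me3 peak, chr4:18556041-18558734, which is 2694 bp wide (rank 352 of 22150 by width, where the median is 841 bp). It covers 67.7% of HTR4 and 88.3% of HTR5. Its summit is inside HTR4, 1133 bp from the lower end of that gene, and its fold of 4.30 therefore cannot be divided between the pair. An H3K27ac peak, chr4:18556207-18558603, spans the same pair with a fold of 1.99. At 2397 bp it is the 46th widest of 19545 peaks whose median width is 519 bp, and its summit also lies in HTR4. HTR4 thus exceeds 51.0% of genes with a peak in H3K4me3 fold and 73.4% in H3K27ac fold.

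The higher values of HTR5 come from a second pair of peaks at its upper flank. The H3K4me3 peak chr4:18559112-18559967 has a fold of 6.61 (rank 523 of 22150), and 334 of its bases fall in the 500 bp flank. The H3K27ac peak chr4:18559155-18559732 has a fold of 2.79, the 2nd highest of 19545 in the list, with 291 bp in the flank. Both summits are past the upper end of HTR5, by 450 and 438 bp, inside the next gene, AT4G40042, and no base of either peak lies in HTR5 itself. Over the gene span alone HTR5 has the shared folds of 4.30 and 1.99. Of the 14517 genes compared by their pair of folds, the 2 most like HTR5 are AT4G40042 and AT4G40045, which share its flanking H3K4me3 peak, followed by ATG3 (AT5G61500; 6.39 and 2.75), whose product acts in autophagy.

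HTR8, on chromosome 5, had 1 wide H3K4me3 peak but a divided H3K27ac signal. The H3K4me3 peak chr5:3471271-3474311 is 3041 bp wide (rank 219 by width), covers 100% of the gene and has a fold of 4.85 with its summit inside the gene. H3K27ac was called as 3 separate peaks under it. The middle one, chr5:3472290-3473348, covers 81.0% of the gene at a fold of 1.60. The one before it, chr5:3471295-3471957, reaches 1.76 but has only 53 bp in the window and no base in HTR8. All its 663 bp lie in AT5G10965, a long non-coding RNA gene, of which the H3K4me3 peak also covers 819 bp. The one after the middle peak, chr5:3473775-3474087, has 1.47. The broad list has no H3K4me3 peak at HTR8, whereas it has one at the other 7 genes and at 64.3% of all genes. The broad list also lacks 5508 of the 22150 narrow H3K4me3 peaks (24.9%), and the narrow peak at HTR8 is among them. Neither H3K27me1 nor H3K27me3 was called over any of the 3 H3.3 genes in either list. With the window widened to 1000 bp, HTR4 reached a broad H3K27me1 peak of the gene before it.

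HTR10, the gene of the sperm variant, had ordinary folds over the highest control level of the 8 genes. The H3K4me3 peak chr1:6904922-6905789 (868 bp) covers 77.6% of the gene and has a fold of 4.23, rank 8511 of 22150. The H3K27ac peak chr1:6904983-6905657 (675 bp) lies wholly within the gene, covers 63.3% of it and has a fold of 1.67, rank 11991 of 19545. Both summits fall on the same base, 319 bp from the lower end. Both folds are below those of all 7 sperm marker genes, which ranged from 5.04 to 6.33 for H3K4me3 and from 1.91 to 2.1 for H3K27ac. Of these, the highest summits of GEX1 (both marks) and DAZ3 (H3K4me3) lay in a neighbouring gene. The highest H3K27ac peak with its summit in GEX1 had 1.72, and the H3K4me3 peak with its summit in DAZ3 had 5.29. HTR10 exceeded 49.4% of genes with a peak in H3K4me3 fold and 27% in H3K27ac fold.

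The significance of the same peaks stood apart. The authors give it as −log10 q, which grows with both the fold and the number of reads. The −log10 q of the HTR10 H3K4me3 peak was 1111, the highest of all 22150. The 3951 other H3K4me3 peaks within 10% of its fold had a median of 86.7 and a highest value of 559.9, so HTR10 was 12.8 times that median. For H3K27ac its −log10 q was 84.6, the 2nd highest of 19545, and 14.1 times the median of 5.99 over 10188 peaks of like fold, none of which exceeded 11.2. The other 7 genes lay between 0.944 and 1.14 times the median of peaks of like fold for H3K4me3, and between 0.791 and 1.3 times for H3K27ac.

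**Figure D3:**
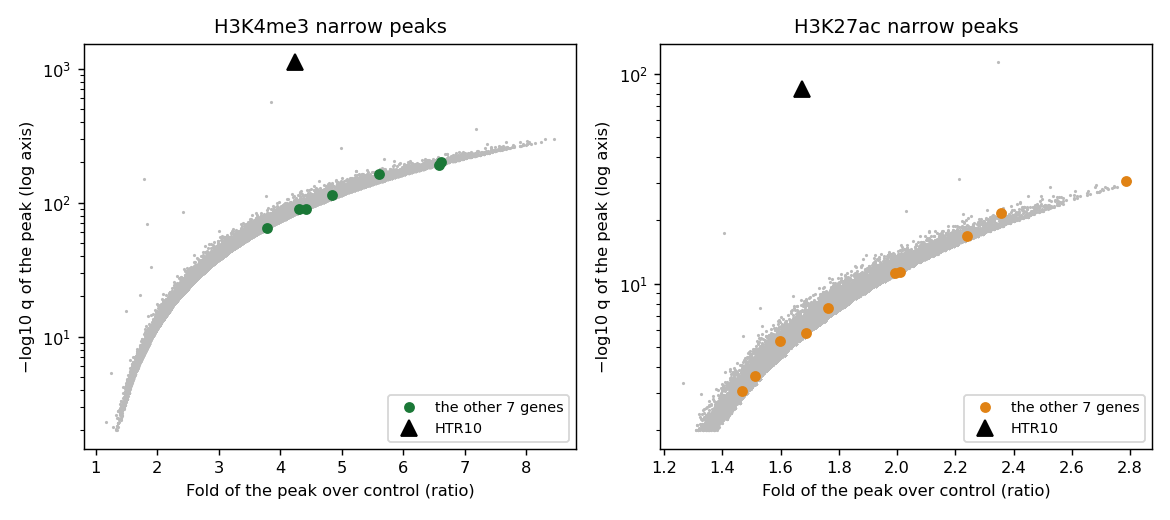
Fold over control (x axis, ratio) and −log10 q (y axis, log scale) of every narrow peak of H3K4me3 (left) and H3K27ac (right). Grey points are all peaks, coloured circles the peaks of the other 7 H3 genes, and the black triangle is HTR10. The 7 genes follow the curve of all peaks, and HTR10 lies far above it at −log10 q 1111 and 84.6.

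Fold and −log10 p together fix how many reads lay over the summit (the pileup) and how many the peak caller took as the control level there, if p is the Poisson tail that MACS2 computes. For H3K4me3 a whole-number pileup gave back the deposited −log10 p within 0.001 in 22147 of 22150 peaks. At HTR10 the solved H3K4me3 pileup was 3778 and the control level 892, whereas the median over the list was 253 and 66.7. The control level at HTR10 was 13.4 times the list median and the 2nd highest of all H3K4me3 peaks. For H3K27ac the pileup was scaled and not a whole number (4.56% came out whole), so the control level is a range, 1081 to 1083 at HTR10. That was 14.3 times the list median of 75.8 and the highest in the list, with a pileup of 1812 against a median of 136. At the other 7 genes the control level was 0.953 to 1.1 times the list median for H3K4me3 and 0.935 to 1.13 times for H3K27ac. For H3K4me3 the control level at HTR6, HTR11 and HTR14 was 63.6, which is the floor of the list. A local control below that level would not be seen there.

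HTR10 sequence is present at the endogenous gene and again in the reporter of the sorted line. Reads of both would be placed at the same coordinates, and the sources used here do not give the number of reporter copies. Marks on the endogenous gene and on the reporter therefore cannot be told apart, and the raised control level stands beside both folds of HTR10. No H3K27me1 or H3K27me3 peak lay over HTR10 or its flanks in either list. The 3 genes nearest to it by their pair of folds were AT5G35560 (4.24 and 1.67), and AT3G20530 and POLGAMMA1 (AT3G20540), which share peaks of 4.22 and 1.68.

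**Figure D4:**
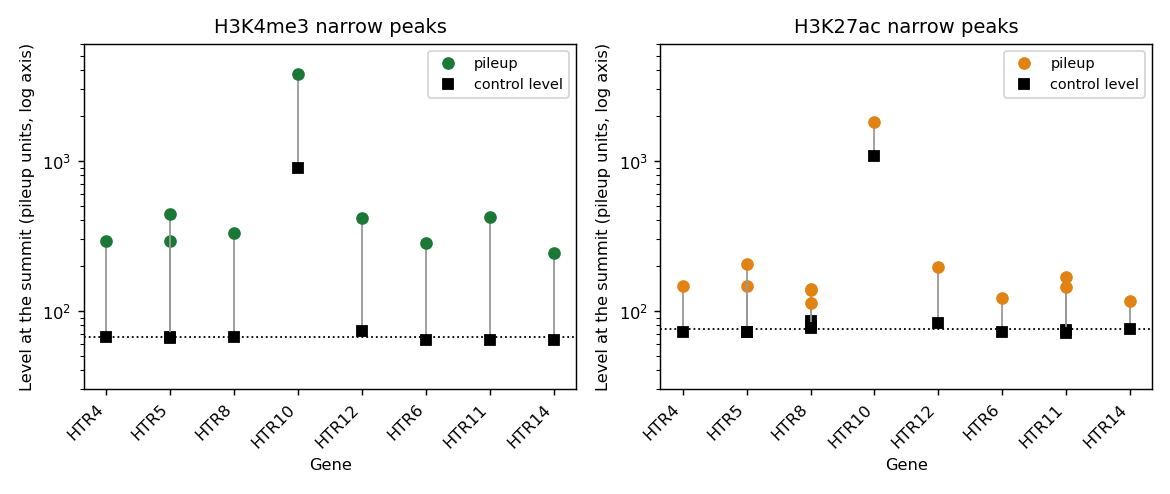
Pileup (circles) and control level (black squares) at the summit of each narrow peak over the 8 genes, in pileup units on a log axis, for H3K4me3 (left) and H3K27ac (right). Both were solved from the deposited fold and −log10 p. The dotted line is the median control level of the list. HTR10 is high in both quantities (3778 over 892, and 1812 over 1082), and the control levels of the other 7 genes lie along the dotted line.

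HTR12, which encodes the centromeric CENH3, was marked in the narrow lists at its lower end, by peaks centred on its neighbour. The H3K4me3 peak chr1:141963-144545 (2583 bp) has a fold of 5.61, rank 2660 of 22150, and covers 35.3% of the gene. The H3K27ac peak chr1:142028-144486 (2459 bp, the 36th widest of 19545) has a fold of 2.36, rank 320, and covers 33.4%. Both summits are inside RCAR1 (AT1G01360), an abscisic acid receptor gene, 843 and 840 bp before the lower end of HTR12. These folds cannot be assigned to HTR12 apart from RCAR1. At the other end of HTR12, the broad H3K4me3 list has a 12652 bp peak, chr1:146158-158809, that starts in HTR12 and touches 6 further genes, and with it broad H3K4me3 covers 50.7% of HTR12. HTR12 had no H3K27me1 or H3K27me3 peak in either list.

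The 3 H3-like genes resemble H3.3 in sequence but are less studied, and they carried the active marks with 3 different surroundings. HTR6 had an H3K4me3 peak of its own, chr1:4587791-4588783 (993 bp), with a fold of 4.41 over 98.8% of the gene. Its H3K27ac peak, chr1:4587970-4588588, has a fold of 1.69 over 70.2% of the gene. HTR6 was also the only one of the 8 genes under a called H3K27me3 peak, chr1:4587929-4588453, a broad peak of 525 bp that covers 59.5% of the gene and lies wholly within its H3K4me3 peak. The narrow H3K27me3 list, which marks 1.55% of all genes, has none of the 8. The −log10 q of the broad peak was 0.765, which is a q over 0.05, as for 1047 of the 1423 broad H3K27me3 peaks (73.6%). The q of a broad peak can differ widely from that of a narrow peak within it. At HTR10 the broad H3K4me3 peak had a −log10 q of 10.6 around a narrow peak of 1111. Whether the value of 0.765 belongs to the HTR6 peak is therefore unknown.

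HTR11 lies beside HTR1 (AT5G65360), an H3.1 gene, and shares its peaks. The H3K4me3 peak chr5:26117221-26120604 is 3384 bp wide, the 137th widest in the list, covers 100% of HTR11 and has a fold of 6.58, rank 539 of 22150. Its summit is inside HTR1, 470 bp past the upper end of HTR11. Of its 2 H3K27ac peaks, chr5:26119455-26120530 covers 60.3% of the gene at a fold of 2.01 with the summit again in HTR1. The other, chr5:26117877-26119011, has 2.24, no base in the gene and a summit in no protein-coding gene, 1061 bp before the lower end. The value of 6.58 thus belongs to an H3-like and an H3.1 gene alike.

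HTR14 had the lowest folds of the 8 and was the only one with H3K27me1. The H3K4me3 peak chr1:28390639-28391959 (1321 bp) covers 100% of the gene at a fold of 3.79, above 38.9% of genes with a peak. The H3K27ac peak chr1:28390893-28391352 (460 bp) covers 49.9% at a fold of 1.51, above 7.63% of genes with a peak, and with a −log10 q of 3.62 it was the weakest H3K27ac value that stood for one of the 8 genes. A narrow H3K27me1 peak, chr1:28390768-28391566 (799 bp), covers 86.8% of HTR14 with a fold of 2.69, rank 2608 of 13130, and has its summit in the gene, 646 bp from the lower end, beside the H3K27ac summit at 648 bp. Narrow H3K27me1 marked 1 of the 8 genes and 30.3% of all genes. Whether H3K27ac and H3K27me1, which exclude each other on one residue, lay on different nucleosomes, histone tails or nuclei at HTR14 cannot be told apart in these lists.

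The broad H3K27ac list holds only 163 peaks. It marked 0.645% of all genes and none of the 8.

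The genes whose products handle H3 were read beside them. All 14 genes of H3 chaperones and centromere loading factors carried H3K4me3, where 79.4% of all protein-coding genes did. The highest fold in the window of each ran from 3.72 to 6.34 with a median of 5.35. By this value the lowest was HIRA (AT3G44530), the chaperone of H3.3, and the highest ATRX (AT1G08600), which also deposits H3.3. H3K27ac was on 13 of the 14, where it was on 62.2% of all genes. Its highest folds ran from 1.70 at NASP to 2.46 at ASF1A (AT1G66740). It was not called at ASF1B (AT5G38110), the other copy of the ASF1 chaperone. FAS1 and FAS2, subunits of CAF-1, had H3K4me3 folds of 5.52 and 5.94 with the summit in the gene, and KNL2, which acts with CENH3 at centromeres, had 4.71. The highest H3K4me3 summit lay outside the gene at 3 of the 14. At FAS2 the window also reached a peak of 6.10 in AT5G64640. CENP-C, another partner of CENH3, had 4.60 at a summit in AT1G15640, and CABIN1 had 5.38 at a summit in AT4G32810. That peak had 62 bp in CABIN1, and the H3K4me3 peak with its summit in CABIN1 had 1.80, below HIRA. For H3K27ac the highest summit lay outside the gene at CABIN1 alone. None of the 14 had H3K27me1 or H3K27me3 in either list. Over all genes, H3K27me1 marked 30.3% in the narrow and 9.96% in the broad list, and H3K27me3 marked 1.55% and 4.44%. The difference between the 14 genes and all genes was not tested.

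The 5 H3.1 genes did not all carry the same marks. H3K4me3 was called on 4 of the 5, where it was on 79.4% of all protein-coding genes. Its folds were 6.58 at HTR1, in the peak shared with HTR11, 3.81 at HTR2, 2.46 at HTR13 and 1.64 at HTR9. The window of HTR13 also reached a peak of 4.07 that has no base in the gene and its summit in AT5G10380, and the summit at HTR9 lay 104 bp outside that gene. H3K27ac was on HTR1 (2.01) and HTR2 (1.65) only, and narrow H3K27me1 on HTR9 (2.48) and HTR13 (2.69). Over all genes the shares were 62.2% for H3K27ac and 30.3% for narrow H3K27me1. HTR3 had no peak in any list. Genes of the H3 family are near-identical in parts of their coding sequence, and the sources used here do not say how reads that match more than one copy were placed. The differences of the H3.1 genes from the 8 genes and from all genes were not tested.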

How the data were processed

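ChIP-seq and input libraries of sorted sperm nuclei were processed by the authors. Per the submitters' processing notes the build was TAIR10 and the tools included MACS2 2.1.0, deepTools 2.5.0.1, Bowtie2 2.1.0, Trim Galore 0.4.1, Picard, SAMtools 1.3 and bedtools. The sources used here do not give their settings. The deposited lists give per peak a fold (a ratio of immunoprecipitation to control), −log10 p and −log10 q, and a score, which was not used.

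Peak starts were changed to counts from 1. Gene spans came from a RefSeq table of TAIR10.1 without strand, in which all 45 listed genes were found, so no gene coordinates are given. H3K4me3 summits, shifted against gene ends by up to 5000 bp, fitted best at 0 bp in 59 of 59 segments of 2 Mb. A gene took the highest fold of the narrow peaks touching its window. Likeness of genes was the distance between their log2 folds of H3K4me3 and H3K27ac, with the 3 nearest named for HTR10 and HTR5.

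Control level and pileup were solved from fold = (pileup + 1)/(control + 1) and the Poisson tail. That step, the summit rule and the counts without HTR10 were added after seeing the data. The genes and lists were chosen with earlier results of these data known. Coverage, pileup and range steps were tested on simulated data. Python 3.11.15, numpy 2.4.6, pandas 2.3.3, scipy 1.17.1 and matplotlib 3.10.9 were used.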

Additional observations from a re-analysis of the deposited data

How the results depend on the processing

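The counts of marked genes were recomputed with the other peak list, an overlap of 1 bp, the gene span alone, 1000 bp flanks and narrow peaks of −log10 q of at least 5. With summits required inside the gene, H3K4me3 and H3K27ac each marked 5 of the 8. With the other list, H3K27ac marked 0, H3K27me1 marked 1 (HTR14) and H3K27me3 marked 0. H3K27me1 also marked 1 with 1000 bp flanks (HTR4) and 1 with the stricter narrow peaks (HTR14), which left H3K27me3 at 0. The other counts stayed within 1.5 times, and without HTR10 both active marks were on 7 of 7. The −log10 q of HTR10 was 13.1 times the median of the 100 peaks nearest in fold and 12.7 times that of peaks of like fold and width. Of 16 folds, 12 kept their value over the gene span alone, and HTR5 (4.30 and 1.99), HTR8 (H3K27ac, 1.60) and HTR11 (H3K27ac, 2.01) moved. With a −log10 q of at least 5, HTR14 had no H3K27ac value, and with summits inside the gene 6 folds had none. No paired analysis was possible because each list pools the replicates of its mark. H3K27me3, with 478 narrow peaks, is the mark most limited by what could be called.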

Other observations

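Few other peaks had a high control level, and some of them lay near ribosomal RNA genes. For H3K4me3, 11 of 22150 peaks had a control level at least 2 times the list median and 2 at least 10 times. The higher of these, chr3:14194009-14195621, stood at 1387, which is 20.8 times the median, within 5 kb of the rRNA genes AT3G41768 and AT3G41979, and the other was HTR10. The next were chr3:4187096-4187833 at 578, over AT3G13062 and AT3G13065, and chr3:14202786-14203903 at 550, near the same rRNA genes. They were followed by chr4:3951165-3954590 at 420 and chr5:11732009-11735930 at 337, neither over a protein-coding gene nor within 5 kb of an rRNA gene. For H3K27ac, 5 of 19545 peaks reached 2 times the median. HTR10 was followed by chr3:14194342-14195268 at 612 and chr3:14203147-14203759 at 418, again near those rRNA genes, and by chr5:11728653-11729055 at 255 and chr5:21317210-21317908 at 157, which had none within 5 kb. At 10 or more times the median, which 2 H3K4me3 peaks and 1 H3K27ac peak reached, only HTR10 did not lie near an annotated rRNA gene. That depends on the cut: the H3K4me3 peaks at 578, 420 and 337, also without an rRNA gene within 5 kb, stood at 8.66, 6.29 and 5.06 times the median.

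Among the vegetative cell markers, VGD1 (AT2G47040), a pectin methylesterase gene of the pollen tube, carried all 4 marks, with a narrow H3K27me3 fold of 7.10 beside 3.84 for H3K4me3, 1.90 for H3K27me1 and 1.60 for H3K27ac. ANX2 (AT5G28680), a receptor kinase gene of the pollen tube, had H3K27me3 at 4.47 beside H3K4me3 at 2.5 and narrow H3K27me1 at 2.14, and no H3K27ac. Its relative ANX1 (AT3G04690) had only the active marks, H3K4me3 at 6.18 and H3K27ac at 1.79 with the summit in the gene, beside an H3K27ac peak of 2.01 with its summit in AT3G04680. BUPS1 (AT4G39110) had no peak in any list.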
